A study of Mus musculus with 12 samples.

Results

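The transcripts described here are those of 7 transcription factors that T cells switch on after antigen receptor and calcium signals: the NR4A orphan nuclear receptors Nr4a1, Nr4a2 and Nr4a3, the zinc finger factors Egr1, Egr2 and Egr3, and the bHLH-PAS factor Npas4. The first 6 were listed by gene name, with earlier results of these data known. Npas4 was chosen by its lower level in stimulated knockout cells, which makes 7 of the 23420 genes in the count files. All 7 passed the filter on low counts, which 12759 genes passed in all. For Npas4, the difference between stimulated knockout and stimulated wild-type cells is therefore given as a description with no test. Its rise with stimulation uses the same stimulated values and is given in the same way.

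Gene expression was measured by RNA sequencing in mouse splenic cells, in 4 groups of 3 libraries. The stimulated KO group (OTUB1-CD4Cre-OT-I) and the stimulated WT group (wild type, OT-I) had 24 h of stimulation through CD3 and CD28, with an antibody to each at 1 µg/ml and the anti-CD3 bound to the plate. The fresh KO and fresh WT groups had the same 2 genotypes and are labelled untreated, so stimulation and time in culture cannot be told apart. Every group carried the OT-I receptor, a transgenic T cell receptor for an ovalbumin peptide, on the C57BL/6 background, and the animals were 6 to 8 weeks old. Otub1, the gene deleted in the KO groups, encodes a deubiquitinating enzyme, and CD4-Cre deletes in developing T cells, before they separate into CD4 and CD8 cells. A genotype tag of the KO libraries reads OTUB1-DKO in place of that name, and the labels do not settle the difference. The labels do not say whether the libraries of a group came from separate animals, so the p-values measure only the spread between these samples.

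NR4A and EGR factors are immediate early genes. Receptor signals reach them through calcium, calcineurin and NFAT and through the Ras and ERK kinases, which act on serum response factor and CREB, so a signal can raise them before any new protein is made. In T cells Nr4a1 is widely used as a readout of receptor signalling, NR4A factors are known for restraining effector function in exhausted and tolerant cells, and Egr2 and Egr3 are known for inducing genes that dampen receptor signalling. Npas4 is best known from neurons, where calcium entry induces it.

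Total counts in genes ran from 15064488 to 25920035 per library, and effective library sizes after TMM scaling were used throughout, with levels given as counts per 1000000 (CPM). The targeted gene went with the labels in all 12 libraries. Otub1 stood at 14.8 ± 1.26 CPM in stimulated KO cells and 94.0 ± 7.47 CPM in stimulated WT cells, and at 27.6 ± 1.91 CPM in fresh KO cells and 62.8 ± 15.4 CPM in fresh WT cells (SD, n = 3 each). The transcript was thus not absent, and fresh KO cells kept 43.9% of the fresh WT level in the fit. Fresh WT replicate 3 had 45.1 CPM, against 72.5 and 70.8 CPM in replicates 1 and 2. One tag of the labels calls the cells dendritic cells, while the design text names naive CD8 T cells. The summed level of 7 CD8 T cell markers was 1575 to 1762 CPM in stimulated KO and 1942 to 2058 CPM in stimulated WT libraries, and 5299 to 5564 CPM in fresh KO and 5173 to 5444 CPM in fresh WT libraries. The 14 dendritic cell markers summed to 640 to 678 CPM in stimulated KO and 560 to 614 CPM in stimulated WT libraries, and to 1368 to 2036 CPM in fresh KO and 1681 to 2069 CPM in fresh WT libraries, and none of them was at 0. These sums hide a spread between markers. With stimulation, 11 of the 14 were called lower in each genotype, 3 higher in KO and 2 higher in WT cells. Over all genes, 42.2% were called lower and 41.7% higher in KO cells, and 41.4% lower and 40.8% higher in WT cells. The list median log2 fold change was -4.063 in KO and -4.255 in WT cells. Itgax averaged 1.23 CPM in stimulated KO and 1.52 CPM in stimulated WT cells, where Cd8a averaged 476 and 592 CPM. Zbtb46 and Batf3, 2 of the 14 dendritic cell markers, were called higher in stimulated KO than in stimulated WT cells and none lower. In that comparison 5.08% of all genes were called higher and 4.22% lower. The part of this marker difference in the values below was not tested. In 3 libraries, stimulated KO replicate 3, fresh KO replicate 2 and fresh WT replicate 3, Y-linked genes had at least 100 reads, so these groups hold more than 1 animal.

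Of the 7 genes, Nr4a1 (chr15:101254269-101274795, plus strand), Nr4a2 (chr2:57106830-57124003, minus strand) and Nr4a3 (chr4:48045153-48086447, plus strand) lie on 3 different chromosomes. Egr2 (chr10:67535475-67542188, plus strand), Egr3 (chr14:70077203-70082614, plus strand) and Npas4 (chr19:4984355-4990316, minus strand) also stand apart from each other. No other annotated gene overlaps any of the 7 on GRCm38 with GENCODE M21, while the annotation and strand setting behind the deposited counts were not given. Bases upstream of a RefSeq transcription start are shown for 5 of the 7, Nr4a1, Nr4a2, Nr4a3, Egr2 and Npas4. The stretches shown for Nr4a3 and Npas4 stop short of that start. No window is shown for Egr1 or Egr3, which stimulation also raised. The letters through which cyclic AMP response element binding protein (CREB), serum response factor and EGR factors bind can be read in the windows shown. The sequences are RefSeq promoter windows on build GRCm38.p6, given 5′ to 3′ on the strand of the gene, without bases that GENCODE counts as exon except for a short stretch of Npas4. Capitals mark the CRE core TGACG, the EGR site GCGNGGGCG and the CArG box of serum response factor, on either strand.
Nr4a1, chr15:101266596-101266845, plus strand: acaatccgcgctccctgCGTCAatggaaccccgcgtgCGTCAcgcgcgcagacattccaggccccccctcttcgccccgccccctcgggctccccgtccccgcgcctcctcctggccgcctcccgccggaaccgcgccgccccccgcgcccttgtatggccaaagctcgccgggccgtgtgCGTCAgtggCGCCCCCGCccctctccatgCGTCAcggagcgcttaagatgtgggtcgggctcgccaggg
Nr4a2, chr2:57124004-57124253, minus strand: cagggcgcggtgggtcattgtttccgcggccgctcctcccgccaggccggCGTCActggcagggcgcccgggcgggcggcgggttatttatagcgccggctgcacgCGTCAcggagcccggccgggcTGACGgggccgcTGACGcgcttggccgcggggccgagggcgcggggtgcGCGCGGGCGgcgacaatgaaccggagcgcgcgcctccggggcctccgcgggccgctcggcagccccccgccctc
Nr4a3, chr4:48045055-48045152, plus strand: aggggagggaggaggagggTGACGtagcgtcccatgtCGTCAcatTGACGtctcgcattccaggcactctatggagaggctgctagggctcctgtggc
Egr2, chr10:67537619-67537868, plus strand: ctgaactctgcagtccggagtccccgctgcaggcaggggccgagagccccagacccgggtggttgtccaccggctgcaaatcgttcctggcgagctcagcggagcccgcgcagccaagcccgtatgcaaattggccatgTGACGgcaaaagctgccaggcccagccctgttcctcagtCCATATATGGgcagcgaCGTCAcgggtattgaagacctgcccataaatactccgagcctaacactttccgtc
Npas4, chr19:4990129-4990157, minus strand: cgttcgaCGTCAcgggaTGACGtcggaag

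The CRE core was found at 4 positions in each of the 250-base windows of Nr4a1, Nr4a2 and Nr4a3, and at 2 positions in the windows printed for Egr2 and Npas4. RefSeq gives 5 windows for Egr2, from different starts. The printed window and the other 2 that share most of its bases hold the core and the CArG box, the next one upstream holds the CArG box alone, and the one farthest upstream holds neither. One of the 4 of Nr4a3 lies in the exonic bases that are not shown. Of all 32851 RefSeq mouse promoter windows of that length, 17.8% held this core at least once and 0.688% at 3 or more positions. The CArG box appeared in the printed window of Egr2 and in no window of the other 4 genes shown (1.47% of all windows). The EGR site appeared once each in those of Nr4a1 and Nr4a2 (4.7% of all windows). Egr1 and Egr3 were not looked at here. The full CRE TGACGTCA (1.55% of all windows), the NR4A site AAAGGTCA (1.34%) and the AP-1 site TGANTCA (6.75%) were not among the letters of any of these windows. A match is a run of letters and not evidence of binding.

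**Figure D1:**
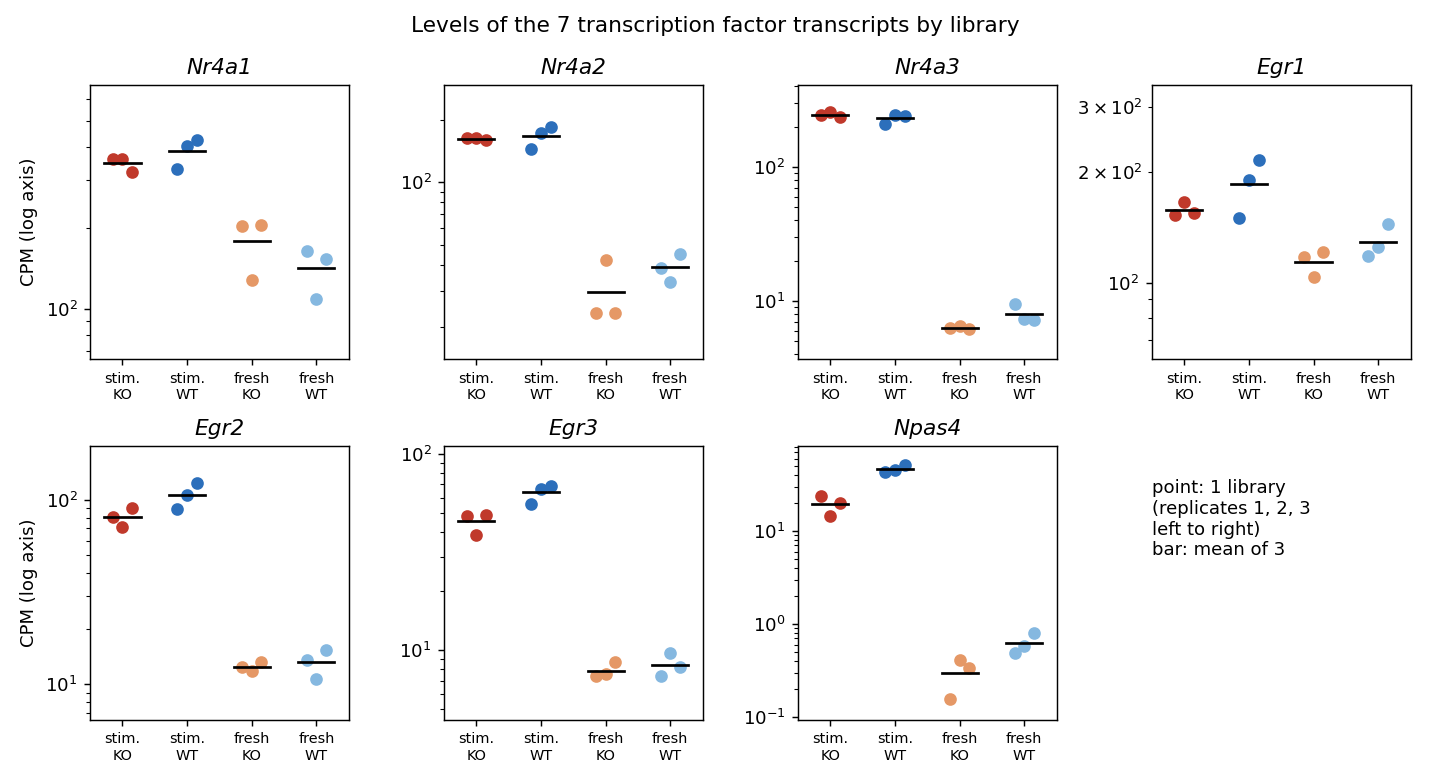
Level of each of the 7 transcripts in CPM (log axis, a separate scale for each gene) in the 12 libraries, in the order stimulated KO, stimulated WT, fresh KO and fresh WT. All 7 are higher in every stimulated library than in any fresh library of the same genotype, and stimulated KO lies below stimulated WT without overlap for Egr3 and Npas4.

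Stimulation raised all 7 transcripts in both genotypes, and the 2 genotypes ranked the genes alike at the ends: Npas4 and Nr4a3 rose most, Egr1 least. Each member other than Npas4 passed edgeR's quasi-likelihood test in KO cells, where 41.7% of the 12759 genes were called higher and 42.2% lower. The same members passed in WT cells, where 40.8% were called higher and 41.4% lower. Npas4 is left out of this count because its stimulated values were used in choosing it. In each genotype the stimulated libraries lay above the fresh ones without overlap for the same members. They did so for 42% of genes in KO and 41.8% in WT cells. Npas4 showed that order too, which is a description. With so large a share of all genes called, the size of the rise tells more than the count. The median log2 fold change over the 7 was 2.53 in KO cells and 2.92 in WT cells, against -0.02 in KO and -0.03 in WT cells over all genes. At least 8-fold rises were called for 3.03% of genes in KO cells and 2.73% in WT cells. Summed markers of other cell types moved with stimulation in the opposite direction. The B cell markers summed to 24.2 to 32.2 CPM in stimulated KO and 159 to 227 CPM in fresh KO libraries, and to 29.4 to 35.7 CPM in stimulated WT and 151 to 180 CPM in fresh WT libraries. The sums of the CD4 T cell, NK, myeloid, and erythroid and platelet markers were also lower in every stimulated library than in any fresh one. So were the sums of the CD8 T cell and dendritic cell markers given above. In fresh KO libraries the first 4 of these lists summed to 22.6 to 25.5 CPM for CD4 T cells, 14.7 to 26.0 CPM for NK cells, 38.2 to 66.1 CPM for myeloid cells and 4.34 to 8.24 CPM for erythroid cells and platelets. Fresh WT libraries had 26.2 to 32.5 CPM for CD4 T cells, 22.3 to 27.1 CPM for NK cells, 46.7 to 71.2 CPM for myeloid cells and 11.7 to 14.0 CPM for erythroid cells and platelets. Klra8, an NK marker, and Hba-a1, an erythroid one, were at 0 in all 4 groups. Single markers did not all follow the sums. Of the 14 dendritic cell markers, 3 were called higher with stimulation in KO and 2 in WT cells. Of the 3 CD4 T cell markers, 2 were called lower in each genotype. The part of this shift in the rises was not tested.

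Npas4 was almost silent before stimulation. It had 23.6, 14.5 and 19.9 CPM in stimulated KO libraries, against 0.156, 0.407 and 0.335 CPM in fresh KO libraries, where the values rest on 3, 9 and 7 reads. In stimulated WT libraries it had 42.7, 44.9 and 51.7 CPM, against 0.486, 0.581 and 0.799 CPM in fresh WT libraries, from 8, 12 and 12 reads. Every stimulated library lay far above every fresh one. The fitted rise was 62.5-fold in KO cells (95% interval 42.7 to 91.6) and 74.9-fold in WT cells (53.5 to 104.8), with edgeR adjusted p = 3.92e-12 in KO and 6.34e-13 in WT cells. Of the 12759 genes, 60 had a higher log2 fold change with stimulation than Npas4 in KO cells, and 45 had one in WT cells.

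Nr4a3 rose most of the NR4A genes. It had 243, 255 and 234 CPM in stimulated KO libraries, against 6.28, 6.52 and 6.13 CPM in fresh KO libraries. In stimulated WT libraries it had 209, 242 and 239 CPM, against 9.53, 7.26 and 7.19 CPM in fresh WT libraries. The rise was 38.6-fold in KO cells (95% interval 33.8 to 44.2) and 28.8-fold in WT cells (25.3 to 32.9), and 96 genes in KO and 108 genes in WT cells had a higher log2 fold change. Nr4a2, which had 164, 163 and 160 CPM in stimulated KO libraries against 23.4, 42.1 and 23.4 CPM in fresh KO libraries, rose 5.45-fold. In WT cells Nr4a2 rose 4.33-fold, with 145, 174 and 184 CPM in stimulated libraries against 38.6, 33.2 and 44.99 CPM in fresh ones. Nr4a1 was already high in fresh cells and rose least of the NR4A genes. It had 360, 359 and 321 CPM in stimulated KO libraries against 204, 128 and 204 CPM in fresh KO libraries, a 1.94-fold rise. In WT cells Nr4a1 rose 2.72-fold, with 329, 402 and 423 CPM in stimulated libraries against 164, 109 and 153 CPM in fresh ones.

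Egr2 and Egr3 rose by similar factors. Egr2 had 80.2, 71.2 and 90.3 CPM in stimulated KO libraries against 12.5, 11.8 and 13.1 CPM in fresh KO libraries, a 6.47-fold rise. In WT cells the rise of Egr2 was 8.11-fold, with 89.6, 106 and 123 CPM in stimulated libraries against 13.5, 10.7 and 15.4 CPM in fresh ones. Egr3 had 48.5, 38.6 and 49.1 CPM in stimulated KO libraries against 7.37, 7.60 and 8.67 CPM in fresh KO libraries, a 5.76-fold rise, and its rise in WT cells was 7.54-fold. There, Egr3 had 56.0, 66.5 and 69.0 CPM in stimulated libraries against 7.41, 9.63 and 8.19 CPM in fresh ones. Egr1, encoded on chromosome 18 and the most abundant EGR transcript at rest, had 153, 166 and 155 CPM in stimulated KO libraries against 117, 103 and 121 CPM in fresh KO libraries. Its rise was 1.38-fold in KO cells and 1.43-fold in WT cells, where it had 150, 190.3 and 215 CPM in stimulated libraries against 118, 125 and 144 CPM in fresh ones. Adjusted p-values for Egr1, the weakest of the 7, were 0.000688 in KO and 0.000288 in WT cells.

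At 24 h, other early genes moved in both directions with stimulation, as did genes in general. Of 25 other early genes, 9 were higher and 13 lower in stimulated than in fresh cells of each genotype, with a median log2 fold change of -0.28 in KO cells and -0.53 in WT cells. The shares of all genes called were 41.7% higher and 42.2% lower in KO cells, and 40.8% higher and 41.4% lower in WT cells. Fos, an AP-1 subunit, averaged 10.4 CPM in stimulated WT cells and 987 CPM in fresh WT cells. Its relative Fosb averaged 11.8 CPM in stimulated WT cells and 312 CPM in fresh WT cells. Irf4, a factor whose level follows receptor signal strength, rose by 3.57 on the log2 scale in WT cells, and Fosl1 had 2.34 CPM in stimulated WT libraries and 0.0202 CPM in fresh ones. High Fos and Fosb in fresh libraries moved with Nr4a1: fresh KO replicate 2 and fresh WT replicate 2 were the lowest of their groups in all 3 genes. In fresh KO replicate 2, Fos stood at 767 CPM and Fosb at 201 CPM, against 1373 and 517 CPM in replicate 1 and 1323 and 494 CPM in replicate 3. In fresh WT replicate 2, Fos stood at 789 CPM and Fosb at 177 CPM, against 1211 and 402 CPM in replicate 1 and 960 and 355 CPM in replicate 3. The part of this spread in the measured rise of Nr4a1 was not tested.

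**Figure D2:**
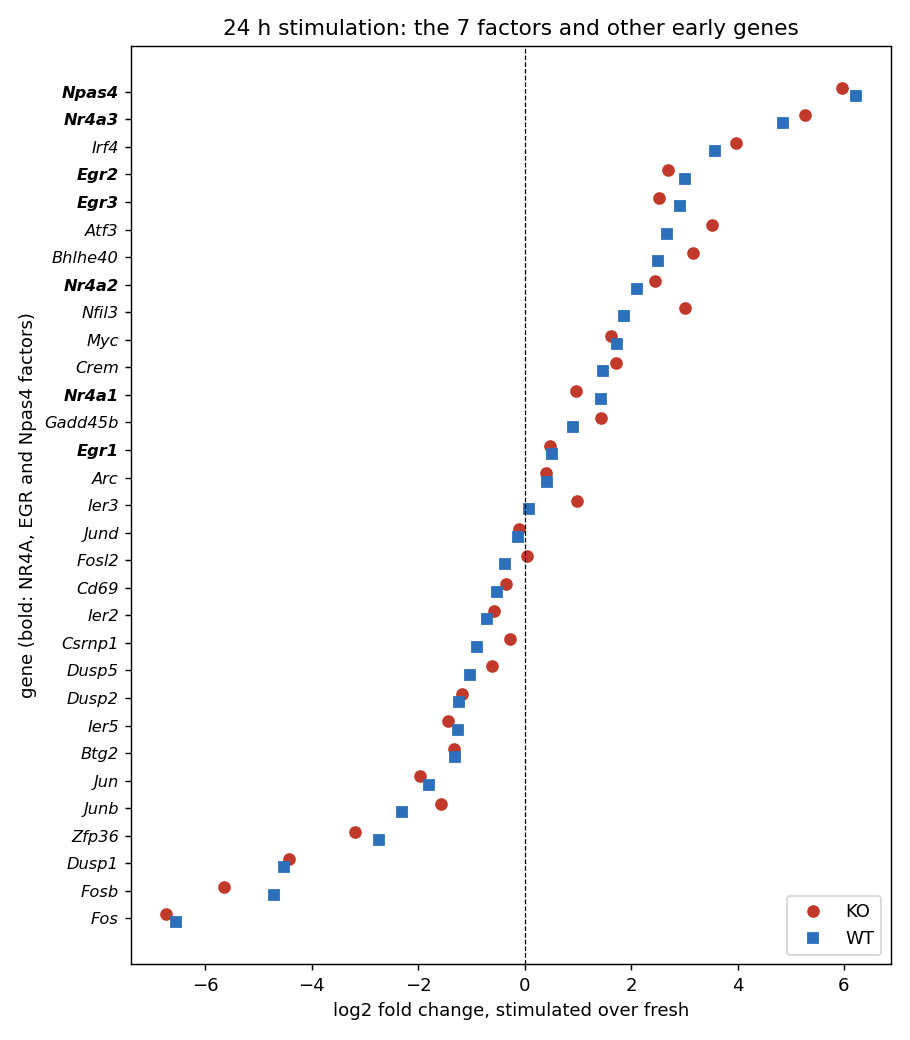
Log2 fold change of stimulated over fresh cells in KO (circles) and WT (squares) for the 7 factors (bold) and 24 other early genes. Fosl1 is left out because its fresh WT libraries hold almost no reads, and the 7 factors all lie right of 0 while Fos, Fosb and Dusp1 lie below -4.

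The partners and relatives of the 7 moved in both directions with stimulation. For all genes, the shares called were 41.7% higher and 42.2% lower in KO cells, and 40.8% higher and 41.4% lower in WT cells. Egr4, the fourth EGR factor, had 58, 25 and 48 reads in stimulated KO libraries and 71, 79 and 101 reads in stimulated WT libraries, against 0, 1 and 0 reads in the fresh libraries of either genotype. Counting Egr4, 3 of 8 tested partners and relatives were higher and 5 lower in stimulated than in fresh cells of each genotype. Nab2, a corepressor that binds EGR factors, averaged 124 CPM in stimulated WT and 51.1 CPM in fresh WT cells, while its relative Nab1 averaged 64.3 CPM in stimulated WT and 119 CPM in fresh WT cells. Rxrb, a retinoid receptor, averaged 83.1 CPM in stimulated WT and 103 CPM in fresh WT cells, and Arnt, a bHLH-PAS partner, averaged 57.7 CPM in stimulated WT and 78.9 CPM in fresh WT cells. These 4 were named after their values were seen. Npas2, a PAS-domain relative, rose by 2.95 on the log2 scale. Rxra, the retinoid receptor that pairs with Nr4a1 and Nr4a2, fell by 1.07 on that scale in WT cells, and Npas1 fell by 1.07 as well. Of 15 CREB and MEF2 genes, 14 fell in each genotype and 1, Atf1, rose (log2 fold change 0.59 in WT cells), with Mef2c at -2.76 and Hdac9 at -2.30. Of 29 genes of calcium, calcineurin and NFAT signalling, 6 rose and 18 fell in WT cells, among them the calcium channel genes Orai1 (log2 fold change 1.37) and Orai2 (-2.85), Nfat5 (1.16) and Camk2b (-2.81). Of 23 genes of the Ras, ERK and serum response factor route, 5 rose and 13 fell, with Hras at 0.83, Rasa1 at 0.82, Rasal3 at -2.33 and Mkl1 at -1.59.

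The rises changed the make-up of both families. Levels of different genes are compared here per kilobase of exon, as CPM per kb. In fresh cells Nr4a1 made up 85.1% ± 7.71 of the NR4A sum in KO and 78.5% ± 2.11 in WT, and Nr4a3 1.82% ± 0.385 in KO and 2.63% ± 0.440 in WT (SD, n = 3 each). After stimulation Nr4a1 made up 55.0% ± 1.03 in KO and 57.8% ± 0.778 in WT, and Nr4a3 22.7% ± 0.518 in KO and 20.3% ± 0.935 in WT. The NR4A sum was 180 ± 8.54 CPM per kb in stimulated KO and 189 ± 22.0 in stimulated WT cells, and 59.3 ± 9.71 in fresh KO and 51.4 ± 9.62 in fresh WT cells. Among the EGR genes, Egr1 held 82.3% of the sum in fresh KO and 83.2% in fresh WT cells, and 51.0% in stimulated KO and 47.3% in stimulated WT cells. The EGR sum was 69.2 ± 2.84 CPM per kb in stimulated KO cells and 87.0 ± 13.7 in stimulated WT cells, and the lowest WT library, at 72.5, lay just above the highest KO library, at 72.3. This order was not tested, and 13.1% of all genes lay lower in stimulated KO than in stimulated WT cells without overlap.

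**Figure D3:**
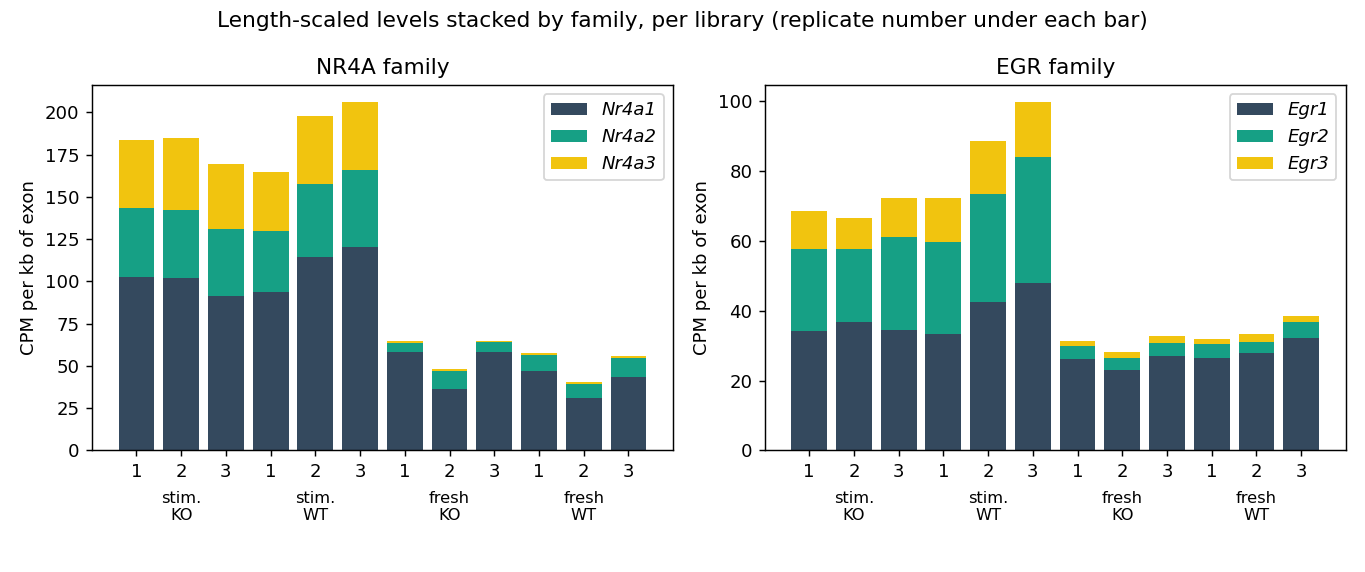
Summed level of the NR4A genes (left) and the EGR genes (right) in CPM per kb of exon, stacked by gene, for each of the 12 libraries. Nr4a1 and Egr1 fill over 75% of each bar in fresh libraries and 46 to 59% in stimulated ones, where the bars are taller.

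Per kilobase, Nr4a1 stood first and Npas4 last in each of the 4 groups. In stimulated KO cells the levels ran from Nr4a1 (98.8 CPM per kb) through Nr4a3 (40.8), Nr4a2 (40.04), Egr1 (35.2), Egr2 (23.7) and Egr3 (10.3) to Npas4 (4.68). Only Nr4a3 and Nr4a2 overlapped between neighbours there, and with the longest transcript as the length Nr4a2 stood above Nr4a3. In stimulated WT cells Nr4a1 (109.7 CPM per kb) was first and Egr3 (14.5) and Npas4 (11.2) last, and the 4 genes between them, Nr4a2, Egr1, Nr4a3 and Egr2, overlapped with their neighbours. In fresh KO and fresh WT cells the order was Nr4a1, Egr1, Nr4a2, Egr2, Egr3, Nr4a3 and Npas4, with an overlap between neighbours for Nr4a1 and Egr1 in fresh WT cells. Npas4 stood at 0.0724 CPM per kb in fresh KO and 0.150 CPM per kb in fresh WT cells.

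Between stimulated KO and stimulated WT cells Egr2 and Egr3 were lower, Npas4 had been chosen for its lower level, and Egr1 and the NR4A genes showed no called difference. Of the 6 members tested, Egr2 and Egr3 fell, none rose, and Nr4a1, Nr4a2, Nr4a3 and Egr1 did not pass. Over all genes 4.22% were called lower and 5.08% higher in this comparison. The median log2 fold change of the 6 was -0.19, against -0.005 over all genes.

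Egr3 showed the clearest of the tested differences. The 3 stimulated KO libraries, at 48.5, 38.6 and 49.1 CPM, all lay below the 3 stimulated WT libraries, at 56.0, 66.5 and 69.0 CPM, an order without overlap that 13.1% of all genes showed in the lower direction. The log2 fold change was -0.49 ± 0.103 (SE), with edgeR adjusted p = 0.0083, which puts Egr3 at 71.2% of its WT level (95% interval 61.2 to 82.9%). Egr2, at 80.2, 71.2 and 90.3 CPM in stimulated KO and 89.6, 106 and 123 CPM in stimulated WT libraries, overlapped between genotypes by 1 library on each side. Its log2 fold change was -0.40 ± 0.116, with adjusted p = 0.0435, or 75.9% of the WT level (64.0 to 90.1%). The call for Egr2 is close to the threshold: it was lost in 8 of 20 alternative settings, with adjusted p-values from 0.0131 to 0.232 over them. Egr3 lost its call in 1, without stimulated WT replicate 3 (adjusted p = 0.0563, over a range of 0.000501 to 0.0563), where the log2 fold change was -0.43. Egr4 fell as well, by 1.02 on the log2 scale (SE 0.228, adjusted p = 0.0117), with no overlap between 1.31 to 2.24 CPM in stimulated KO and 3.56 to 4.197 CPM in stimulated WT libraries. Egr4 too lost its call without stimulated WT replicate 3 (adjusted p = 0.0652, over a range of 0.00545 to 0.0652), so 0 of the 6 members and no EGR relative was called without that library. In bulk RNA, fewer cells that express a gene and less RNA per cell cannot be told apart.

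Npas4 was lower in all 3 stimulated KO libraries, at 23.6, 14.5 and 19.9 CPM (610, 278 and 463 reads), than in the stimulated WT libraries, at 42.7, 44.9 and 51.7 CPM (852, 933 and 1244 reads). The level in KO cells was 41.9% of that in WT cells (95% interval 34.0 to 51.6%), a log2 fold change of -1.26 ± 0.141. This is the value for which Npas4 was listed, and neither the interval nor the order of the libraries takes that choice into account.

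Egr1 had 153, 166 and 155 CPM in stimulated KO and 150, 190.3 and 215 CPM in stimulated WT libraries, with stimulated WT replicate 1 below every KO library. Its log2 fold change was -0.23 ± 0.104 (adjusted p = 0.189), and the interval for its level ran from 73.1 to 99.3% of WT. It was called lower in 1 of 20 alternatives, without stimulated WT replicate 1 (log2 fold change -0.36, adjusted p = 0.0142, over a range of 0.0142 to 0.641). That library had the lowest value of its group for all 7 members, and stimulated WT replicate 3 had the highest for 6 of 7.

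None of the NR4A genes was called. Nr4a1 stood at 360, 359 and 321 CPM in stimulated KO and 329, 402 and 423 CPM in stimulated WT libraries (log2 fold change -0.15 ± 0.159, adjusted p = 0.616), and its interval, 71.2 to 114% of WT, reached down to the level found for Egr3. Nr4a2 had 164, 163 and 160 CPM in stimulated KO and 145, 174 and 184 CPM in stimulated WT libraries (log2 fold change -0.05 ± 0.154, adjusted p = 0.889), with an interval of 77.1 to 122% of WT. For Nr4a3 the KO values of 243, 255 and 234 CPM lay among and above the WT values of 209, 242 and 239 CPM. Its interval, 96.3 to 117% of WT, leaves out falls of the size of Egr2 and Egr3. Its share of the NR4A sum per kb was 22.1, 23.0 and 23.0% in stimulated KO and 21.2, 20.5 and 19.4% in stimulated WT libraries. The groups did not overlap in this share, which is a description without a test.

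**Figure D4:**
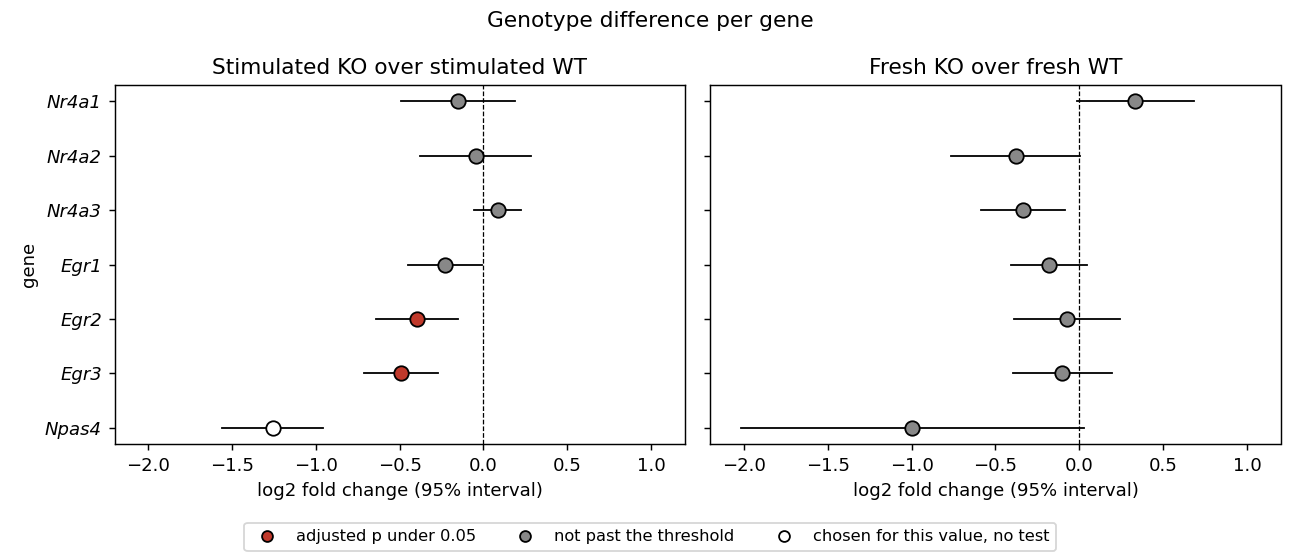
Log2 fold change of KO over WT with its 95% interval from the edgeR fit for the 7 genes, in stimulated cells (left) and fresh cells (right). Red points have an adjusted p under 0.05 (Egr2 and Egr3 in stimulated cells), grey points do not, and the open point is Npas4 in stimulated cells, which was chosen for that value.

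Between stimulated KO and stimulated WT cells 4.22% of all genes were called lower and 5.08% higher. None of the 25 other early genes was called lower in stimulated KO cells. Of these, 3 rose (median log2 fold change of the 25, 0.11): Ier3, which had 13.1 ± 3.09 CPM in stimulated KO and 3.46 ± 0.146 CPM in stimulated WT cells (log2 fold change 1.90, adjusted p = 0.000122), Bhlhe40, a bHLH repressor (0.70, adjusted p = 0.00457), and Junb, an AP-1 subunit (0.47, adjusted p = 0.0045). Of the 29 calcium, calcineurin and NFAT genes, none rose and 3 fell, with a list median of 0.002. They were Camk2b, a calmodulin-dependent kinase subunit, at 2.55 ± 0.747 CPM in stimulated KO and 4.68 ± 0.195 CPM in stimulated WT cells (log2 fold change -0.86), the calcium channel gene Orai2 (-0.55) and the factor Nfatc1 (-0.27). Of the 23 genes of the Ras, ERK and serum response factor route, 3 rose, Map2k1 (0.45), Mapk3 (0.31) and Nras (0.19), which encode a MEK kinase, an ERK kinase and a Ras protein. The 2 that fell were Rasa1 (-0.42), which switches Ras off, and Elk4 (-0.25), a partner of serum response factor. Of the 15 CREB and MEF2 genes edgeR called 0, with 3 at an unadjusted p under 0.05 (Creb1, Crtc1 and Hdac7, named after their values were seen), while DESeq2 and limma-voom each called 1 lower.

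Of 15 genes linked to EGR factors in T cells, 6 fell and 1 rose in stimulated KO cells, a comparison in which 4.22% of all genes were called lower and 5.08% higher. The list median was -0.04 against -0.005 over all genes. The list was chosen with earlier results of these data known, so its counts are not independent of those results. Nrgn, a calmodulin-binding protein best known from neurons, stood at 1.06 ± 0.445 CPM in stimulated KO and 2.17 ± 0.385 CPM in stimulated WT cells. Id3, an inhibitor of E proteins, stood at 21.3 ± 5.14 CPM in stimulated KO and 32.4 ± 0.847 CPM in stimulated WT cells. Nrn1, which encodes neuritin, stood at 45.2 ± 1.89 CPM in stimulated KO and 66.9 ± 6.99 CPM in stimulated WT cells. Crtam, a cell adhesion receptor, stood at 237 ± 26.1 CPM in stimulated KO and 309 ± 32.4 CPM in stimulated WT cells. The log2 fold changes were -1.001 for Nrgn, -0.60 for Id3, -0.57 for Nrn1 and -0.38 for Crtam, and in none of these 4 did the groups overlap, as in 13.1% of all genes in that direction. Dgkz (-0.31) and Dgka (-0.28), the diacylglycerol kinases that blunt Ras activation, also fell. Il2rb, an interleukin-2 receptor chain, rose by 0.36. Without 1 library, 4 to 6 of the 15 were called lower, the fewest without stimulated WT replicate 3, and the call for Il2rb was lost in 5 of the 6 fits that left out a stimulated library, all but the one without stimulated KO replicate 1.

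**Figure D5:**
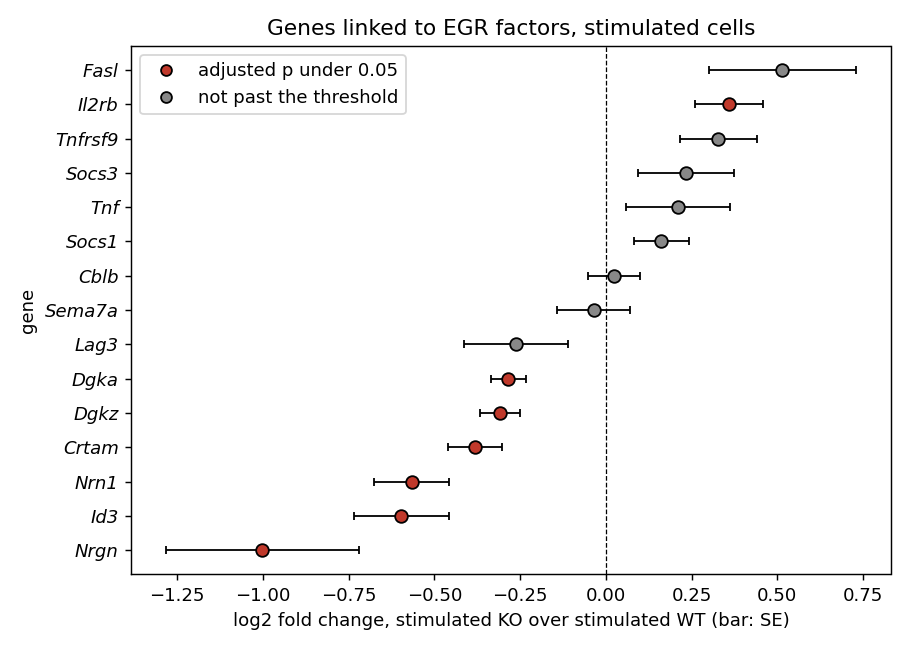
Log2 fold change of stimulated KO over stimulated WT cells, with its standard error, for the 15 genes linked to EGR factors. The list was chosen with earlier results of these data known. Red points have an edgeR adjusted p under 0.05: Il2rb lies above 0, and Dgka, Dgkz, Crtam, Nrn1, Id3 and Nrgn below.

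Of 11 genes linked to NR4A factors, 1 rose and 2 fell in stimulated KO cells, with a list median of 0.18. In this comparison 5.08% of all genes were called higher and 4.22% lower, and this list too was chosen with earlier results known. Pdcd1, which encodes the inhibitory receptor PD-1, stood at 67.7 ± 8.54 CPM in stimulated KO and 100.3 ± 13.9 CPM in stimulated WT cells (log2 fold change -0.57, adjusted p = 0.0157). Klf2, a factor of quiescence and tissue exit, had a log2 fold change of -0.77, and Il2ra, the high-affinity interleukin-2 receptor chain, one of 0.33. Without stimulated KO replicate 2 or stimulated WT replicate 2, 0 of the 11 were called higher, and without stimulated KO replicate 2 or stimulated WT replicate 3, 1 was called lower. Without stimulated KO replicate 2, 1 of the 23 Ras and ERK genes was called higher in place of 3. Without stimulated WT replicate 3, 1 of those 23 was called lower in place of 2. Of the 9 tested handling and heat shock genes, 1 rose, Hsp90aa1 (0.28). Of the CD8 T cell markers, 4 of 7 were lower in stimulated KO than in stimulated WT cells, Cd8a (-0.31), Cd3d (-0.40), Cd3e (-0.31) and Cd3g (-0.49), values that overlap in size with those of Egr2 and Egr3. The part of this shift in the EGR values was not tested.

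Most of the linked genes were called with stimulation, as were most genes: 41.7% of all genes were called higher and 42.2% lower in KO cells, and 40.8% higher and 41.4% lower in WT cells. Of the 15 EGR-linked genes, 9 rose and 4 fell in KO cells, and 10 rose and 3 fell in WT cells, where Nrn1 (log2 fold change 7.57) and Tnfrsf9 (5.78) rose most and Dgka (-2.60) and Socs3 (-1.95) fell most. Of the 11 NR4A-linked genes, 5 rose and 6 fell in either genotype, in WT cells with Il2ra at 7.63, Pdcd1 at 5.87, Klf2 at -5.41 and Entpd1 at -3.11. Among the heat shock genes 4 rose and 2 fell in WT cells, with Hspd1 at 2.80, Hsp90aa1 at 2.18, Dnajb4 at -1.38 and Dnajb1 at -0.29.

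In fresh cells no member was called between KO and WT, where 0.98% of all genes were called higher and 0.219% lower. The median log2 fold change of the 7 was -0.18. DESeq2 and limma-voom called 0 of the 7 too, and at an unadjusted edgeR p under 0.05, 1 passed, Nr4a3. Its fresh KO libraries, at 6.28, 6.52 and 6.13 CPM, all lay below the fresh WT libraries, at 9.53, 7.26 and 7.19 CPM (log2 fold change -0.34 ± 0.118, adjusted p = 0.204), an order that 9.41% of genes showed. Npas4 had 3, 9 and 7 reads in fresh KO and 8, 12 and 12 reads in fresh WT libraries, again without overlap in CPM. Its log2 fold change of -0.996 ± 0.479 had adjusted p = 0.371, and its level was 50.1% of WT (95% interval 24.7 to 102%), so at this depth neither the fall seen in stimulated cells nor equal levels lies outside the interval.

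Nr4a2 in fresh cells turned on 1 library. It had 23.4, 42.1 and 23.4 CPM in fresh KO and 38.6, 33.2 and 44.99 CPM in fresh WT libraries, so fresh KO replicates 1 and 3 lay below all WT libraries and replicate 2 among them. The log2 fold change was -0.38 ± 0.180 (adjusted p = 0.362). Without fresh KO replicate 2 it was -0.72, with adjusted p = 0.00968, and without all 3 libraries with Y-linked reads, of which that replicate is one, it was -0.61, with adjusted p = 0.0287. Over all 20 alternatives the adjusted p ran from 0.00968 to 0.717. The same replicate was low in Nr4a1 (128 CPM), Fos and Fosb. Nr4a1 had 204, 128 and 204 CPM in fresh KO and 164, 109 and 153 CPM in fresh WT libraries (log2 fold change 0.33 ± 0.164, adjusted p = 0.384).

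Egr1, Egr2 and Egr3 overlapped between fresh KO and fresh WT libraries. Their log2 fold changes were -0.18 (adjusted p = 0.476), -0.07 (0.885) and -0.10 (0.812), and the intervals for their levels ran from 75.4 to 103%, 76.5 to 118% and 75.9 to 114% of WT. Among the pathway lists 1 gene was called in fresh cells, Il2rb, with 394 ± 70.3 CPM in fresh KO and 281 ± 11.2 CPM in fresh WT cells (log2 fold change 0.49, adjusted p = 0.0288), and it was not called without fresh WT replicate 2 or 3 or without the libraries with Y-linked reads. Without fresh KO replicate 2, 4 of the 25 other early genes were called lower, and without fresh KO replicate 1, 2 were called higher. Over all genes, 76 were called lower without fresh KO replicate 2, against 28 with all libraries. Higher calls over all genes ran from 21 to 170 in the fits that left out 1 library, against 125 with all.

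The difference between the stimulated and the fresh genotype effects, tested as an interaction, was called for none of the 6 members tested, while 0.698% of all genes had a positive and 1.56% a negative call. DESeq2 and limma-voom called 0 of the 6 too, and at an unadjusted edgeR p under 0.05, 2 passed, Nr4a3 and Egr3. For Nr4a3 the log2 interaction was 0.42 ± 0.135, with adjusted p = 0.121, and for Egr3 it was -0.39 ± 0.173, with adjusted p = 0.277. The other values were -0.49 ± 0.228 for Nr4a1, 0.33 ± 0.237 for Nr4a2, -0.05 ± 0.149 for Egr1 and -0.32 ± 0.187 for Egr2. A fall of Egr2 and Egr3 that is particular to stimulated cells was thus not shown. Nr4a2 reached 0.68 with adjusted p = 0.0283 without fresh KO replicate 2, over a range of 0.0283 to 0.785. For Npas4 the value was -0.26 with a 95% interval of -1.42 to 0.90, given as a description, since few fresh reads set its width. It was 0.02 without fresh KO replicate 2. Among the pathway genes, Junb had a positive interaction (0.73, adjusted p = 0.00886), and Orai2 (-0.44), Rasa1 (-0.31), Dgka (-0.29) and Klf2 (-0.87) had negative ones. The call was lost for Orai2 without fresh WT replicate 2 or stimulated WT replicate 3, for Rasa1 without stimulated WT replicate 3 or the libraries with Y-linked reads, and for Dgka in 7 of the 12 fits that left out 1 library. In the other direction, 5 of the 25 other early genes had a positive call without fresh KO replicate 2. Positive calls over all genes ran from 32 to 153 in the fits that left out 1 library, against 89 with all.

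Which genes moved most like each member over the 12 libraries was measured by the root mean square difference of centred log2 CPM among 9678 genes (9679 for Npas4), a description without a test. The closest pair among the 7 was Egr2 and Egr3, at 0.198. Ptger2, a prostaglandin E2 receptor, was the nearest gene to both, at 0.150 from Egr2 and 0.184 from Egr3, and had 20.1 CPM in stimulated KO, 27.2 CPM in stimulated WT, 2.81 CPM in fresh KO and 3.55 CPM in fresh WT cells. Crtam was second to Egr2 at 0.151, and Slc19a1, the reduced folate carrier, second to Egr3 at 0.187. Nr4a3 was closest to Eif4ebp1 (0.155), which encodes a translation inhibitor, Pck2 (0.162), a mitochondrial enzyme, and the cytokine gene Lta (0.251). Nr4a2 was closest to Snhg4 (0.170), the phosphatase gene Dusp4 (0.190) and Dctd (0.214). Nr4a1 was closest to Wdr89 (0.151), N6amt2 (0.154) and Rhbdd1 (0.163), and Egr1 to Gtpbp8 (0.118), Ndfip2 (0.120) and Bri3 (0.120). The genes nearest to Npas4 lay farther off: Galnt3 (0.563), Spry1 (0.586), a feedback inhibitor of receptor signalling, and Trib3 (0.605). Npas4 had only 3 to 12 reads in each fresh library, so its distances also carry counting error. Distances for genes with a small range over the groups, such as Egr1, are small by construction.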

How the data were processed

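RNA was sequenced from 12 libraries in 4 groups of 3, grouped by the source labels, with replicate numbers in accession order that name a library and pair nothing. Raw counts of reads per gene were deposited by the authors, in 1 table a library. Build mm10 and the tools HTSeq, DESeq2, TopHat and TopHat2 are named, per the submitters' processing notes. Tool versions, annotation and strandedness were not given in the sources used here. Summary lines that name no gene (5.22 to 6.43% of each table) were left out, among them reads not mapped uniquely (2.95 to 3.92%). Total gene counts were 15064488 to 25920035. Pairs of libraries of 1 group differed by more than counting error in all 12 pairs (chi-square per degree of freedom 4.26 to 18.6).

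From these counts, edgeR 4.0.16 in R 4.3.3 was run with TMM scaling, filterByExpr and a quasi-likelihood fit of all 12 libraries with 1 coefficient per group (8 residual degrees of freedom). P-values were two-sided, adjusted by Benjamini-Hochberg over all 12759 genes tested, and called under 0.05. Fold changes, standard errors and 95% intervals come from that fit. CPM used effective library sizes. The counts are of reads and not of molecules. The fit was tested on simulated counts. Alternatives were DESeq2 1.42.0, limma 3.58.1 (voom), RLE size factors, 2 other filters on low counts, fits of the compared groups alone, Y-linked reads as a term or a reason to leave libraries out, and leaving out each library.

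The 7 genes and the gene lists were chosen with earlier results of these data known. From each pathway list, the text names up to 4 called genes per direction with the largest log2 fold change for KO against WT and the interaction, and up to 2 for stimulation in WT. Dgkz is named beyond that rule, after its value was seen. For likeness, genes with a mean log2 CPM of at least 2 (prior count 2) were compared and the nearest 3 are given. Markers of further cell types were summed. In stimulated KO libraries B cell markers came to 24.2 to 32.2 CPM, CD4 T cell markers to 7.96 to 8.05 CPM, NK markers to 1.20 to 1.46 CPM, myeloid markers to 3.50 to 3.66 CPM, and erythroid and platelet markers to 1.03 to 1.99 CPM. In stimulated WT libraries they came to 29.4 to 35.7, 6.91 to 12.5, 1.30 to 2.08, 3.71 to 4.99 and 1.60 to 2.36 CPM in that order of cell types.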

Additional observations from a re-analysis of the deposited data

How the results depend on the processing

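Each comparison was refitted under 20 alternatives (19 for the interaction). With stimulation, each member other than Npas4 was called higher in KO and in WT cells under each of them. Npas4, chosen by its stimulated values, is not counted here. In stimulated KO against stimulated WT cells, 2 members were called lower as reported, 1 when only these 2 groups entered the fit (Egr2 then had adjusted p = 0.0599, over a range of 0.0131 to 0.232), and 0 to 3 when 1 library was left out. The 0 came without stimulated WT replicate 3 and the 3 without stimulated WT replicate 1. In fresh cells 0 members were called lower, and 1, Nr4a2, without fresh KO replicate 2 or without the 3 libraries with Y-linked reads (leave-one-out range 0 to 1). In the interaction 0 were called higher, with a leave-one-out range of 0 to 1. Signs turned in 6 tested log2 values that were not called and in 1 described without a test. The stimulated Nr4a2 difference ran from -0.14 to 0.03 over the libraries left out, the fresh Egr2 difference from -0.21 to 0.05 (0.09 without the Y-linked libraries), the fresh Egr3 difference from -0.18 to 0.03, the Egr1 interaction from -0.18 to 0.07, and the Npas4 interaction, which has no test, from -0.55 to 0.02. Of 653 member values with an adjusted p, 634 kept direction and side of the threshold. The 653 include the values of Npas4 for stimulation, which are descriptions here, and 39 further values of Npas4 have no adjusted p. Over all genes, 648 rose and 539 fell in stimulated KO cells, against 258 and 256 without stimulated WT replicate 3; the cause was not tested. Fresh calls over all genes varied more, with 125 higher and 28 lower, against 227 and 101 by DESeq2. No paired analysis was possible because the labels give the libraries of a group no replicate numbers that are shared across groups.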
